A study of Mus musculus with 6 samples.

Results

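Keratin genes of the basal epidermis and of stressed epidermis, the 7 genes Krt5, Krt6a, Krt6b, Krt14, Krt15, Krt16 and Krt17, were described in cultured squamous cell carcinoma cells of the mouse. The genes were chosen by name, with measured values of these libraries already known, among them the low translational efficiency of Krt15, so the values given for them are a description and were not tested. Each of the 7 genes had a row of its own among the 23698 rows of the table, and all 7 were among the 9863 genes that passed the filters on low values. The study set ribosome footprints beside RNA levels in these cells. All 3 libraries used here came from keratinocytes of newborn back skin with the genotype HrasG12V; Tgfbr2 fl/fl KO, called SCC, at passage 10 to 15. The SCC cells were an established line in culture, and no wild-type library was analysed here. Used here were 1 ribosome profiling library, which sequences the RNA fragments that ribosomes protect, and 2 RNA-seq libraries of total mRNA. The methods of the study list further ribosome profiling libraries of these cells, from another series, which were not analysed here. Exon counts totalled 3549555 for footprints, and 10707930 and 14003713 for RNA-seq replicates 1 and 2. Nothing in the labels says whether the RNA-seq replicates came from separate cultures. Nor do the labels say whether the ribosome profiling library shared a culture with either of them.

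Keratins are the intermediate filament proteins of epithelia, and a filament is built from pairs of a type II and a type I chain. The pair of Krt5 and Krt14 forms the filaments of basal keratinocytes, and Krt15 is a further type I chain of the basal layer and of the hair follicle stem cells. Krt6a and Krt6b of type II, with Krt16 and Krt17 of type I, are low in resting epidermis and are known to rise in wounds, in hyperproliferation and in carcinoma.

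On GRCm38, with GENCODE M21, the type II genes lie on chromosome 15 and the type I genes on chromosome 11, all on the minus strand. Krt6b spans chr15:101676023-101680287, Krt6a chr15:101689910-101694307 and Krt5 chr15:101707070-101712898, each with 9 exons. Krt15 spans chr11:100131758-100135928, Krt14 chr11:100203162-100207548, Krt16 chr11:100246091-100248902 and Krt17 chr11:100256217-100261029, each with 8 exons. The counted coding sequence (CDS) covered 100% of the annotated CDS without its stop codon in all 7 genes.

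The first 30 bases of each CDS, all in exon 1, are shown because 30 bases is about the length of a ribosome footprint, and Krt6a and Krt6b, like Krt14 and Krt16, are hard to tell apart over it. Capitals mark the bases that differ from Krt6a among the type II genes and from Krt14 among the type I genes.
Krt6a: atgtctaccaaaaccaccatcaaaagtcaa
Krt6b: atgtctaccaaaaccaccatcaaGagtcaa
Krt5: atgtctCGcCaGTccaGTGtGTCCTTCcGa
Krt14: atggccacctgcagccgccagttcacctcc
Krt16: atggccacctgcagccgccagttcacctcc
Krt17: atgAccaccACcaTccgccagttTacctcc
Krt15: atggccaccACATTcTTGcaAACGTcTtcc
Krt14 and Krt16 were identical over these bases, and Krt6b differed from Krt6a at 1 of them. Krt17 differed from Krt14 at 5, Krt15 from Krt14 at 14 and Krt5 from Krt6a at 16. At the other end of the CDS, stop codon included, the paired genes were less alike for Krt14 and Krt16 than for Krt6a and Krt6b.
Krt6a: tcctccagcaagaagagctacaggcagtga
Krt6b: tcctccagcaGgaagagctacaggcaCtga
Krt14: cacgagcaggtcctgcgcaccaagaactaa
Krt16: caGAGCcaAAGTcAgAgTTccaGgGactaa
Krt6b differed from Krt6a at 2 of the last 30 bases, and Krt16 from Krt14 at 14.

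Along the whole CDS, 76.3% of the 30-base windows of Krt6a and 77.0% of those of Krt6b also occurred in a transcript of another gene, 1117 of them in each other. The longest identical stretch of these CDS was 280 nt. In Krt16, 58.6% of the windows were shared, 502 of 1381 with the pseudogene Gm11597 and 310 with Krt14, with which its longest identical stretch was 134 nt. The shares were 35.1% in Krt14, 20.0% in Krt17, 16.9% in Krt5 and 5.14% in Krt15. Krt15, the member with the most distinct CDS, shared 39 windows with Krt17 and 30 with Krt25, and with windows of 50 bases its share was 0.832%. The UTRs were almost free of such windows: Krt6b shared 7 of the 477 windows of its 3′UTR, none of the other 3′UTRs shared any, and neither did the 5′UTRs long enough to hold a window. How the counting treated reads that map to several genes is not given in the sources used here, so the CDS counts of Krt6a, Krt6b, Krt16 and, in part, Krt14 are uncertain as values of single genes.

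**Figure D1:**
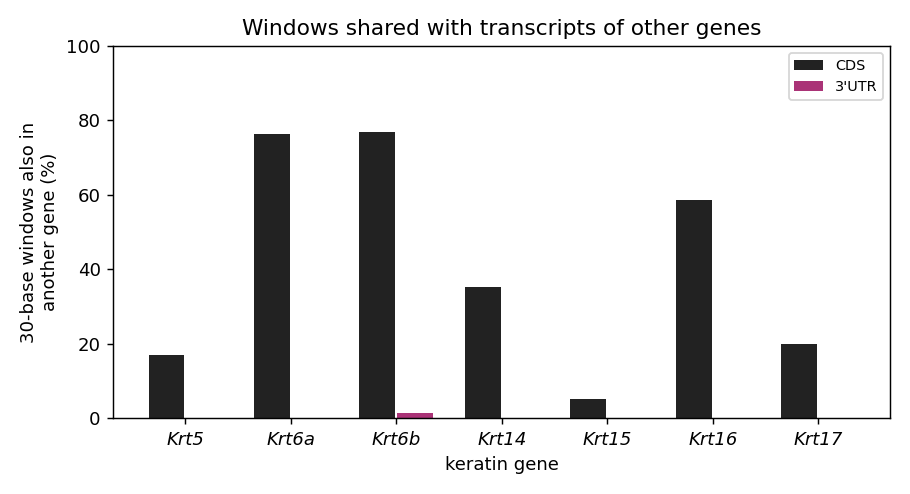
Percent of the 30-base windows of the CDS (black) and of the 3′UTR (purple) of each member that also occur in a GENCODE M21 transcript of another gene. The CDS bars of Krt6a, Krt6b and Krt16 are above 50%, that of Krt15 is 5.14%, and 3′UTR windows are shared only in Krt6b (1.47%).

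RNA levels were compared per length, as RPKM, the count divided by the counted length in kilobases and by the exon counts of the library in units of 1e6. Krt5, the basal type II chain, had 7965 RPKM in RNA-seq replicate 1 and 9483 in replicate 2, a mean that ranked 2 of all genes that passed the filters. Krt14, its type I partner, had 4824 and 5362 RPKM and ranked 3. Krt6a, a stress-induced chain, had 4483 and 4789 RPKM and ranked 5. The basal pair and a stress keratin were thus among the most abundant mRNAs of these cells, beside a median of 15.3 RPKM over all passing genes. Krt6b had 1704 and 1852 RPKM on exons. Krt17, which is found with Krt6 in stressed epidermis, had 1324 and 1616 RPKM. Krt16 had 439.6 and 528 RPKM, and Krt15 had 425 and 495. The order Krt5, Krt14, Krt6a, Krt6b, Krt17, Krt16, Krt15 was the same in both replicates, but Krt16 and Krt15 overlapped, and the means of Krt14 and Krt6a were apart by less than the replicates of Krt14. The 7 genes together held 4.28% of the exon counts in replicate 1 (95% Wilson interval 4.27% to 4.29%) and 4.87% in replicate 2 (4.86% to 4.89%). Such intervals cover counting error only.

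Every member was somewhat higher in replicate 2 than in replicate 1. The log2 ratio of replicate 2 to replicate 1 ran from 0.10 in Krt6a to 0.29 in Krt17, with a median of 0.22, beside a median of −0.01 and an SD of 0.20 over all passing genes. With edgeR's TMM factors the members ran from 0.11 to 0.30, and with DESeq2's size factors from 0.11 to 0.30. The summed RNA level of 8 fibroblast markers was 10.3 RPKM in replicate 1 and 16.0 in replicate 2, and that of 5 immune markers was 3.75 and 12.0. Their part in the differences between replicates was not tested, and in such bulk libraries fewer cells of a type and less RNA per cell cannot be told apart.

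Footprints on the CDS were numerous for 6 of the 7 genes. Krt5 had 28660.0 footprints, or 4640.4 RPKM, and Krt6a had 25247, or 4287 RPKM. Krt14 had 15608 footprints (3028 RPKM) and Krt6b 16006 (2713 RPKM). The remaining stress keratins of type I were lower, with 4764 footprints (1033 RPKM) in Krt17 and 3500.4 (701 RPKM) in Krt16. Krt15 stood far below, with 173 footprints on 1368 nt of CDS, or 35.7 RPKM. By footprint density Krt15 was in place 3409 of the 9863 genes, and by RNA level in place 107. The other 6 members lay between place 17 (Krt5) and place 245 (Krt16) by footprint density. Of all CDS footprints, the 7 genes held 2.94% (95% Wilson interval 2.92% to 2.96%) and Krt15 held 0.00542% (0.00466% to 0.00628%).

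**Figure D2:**
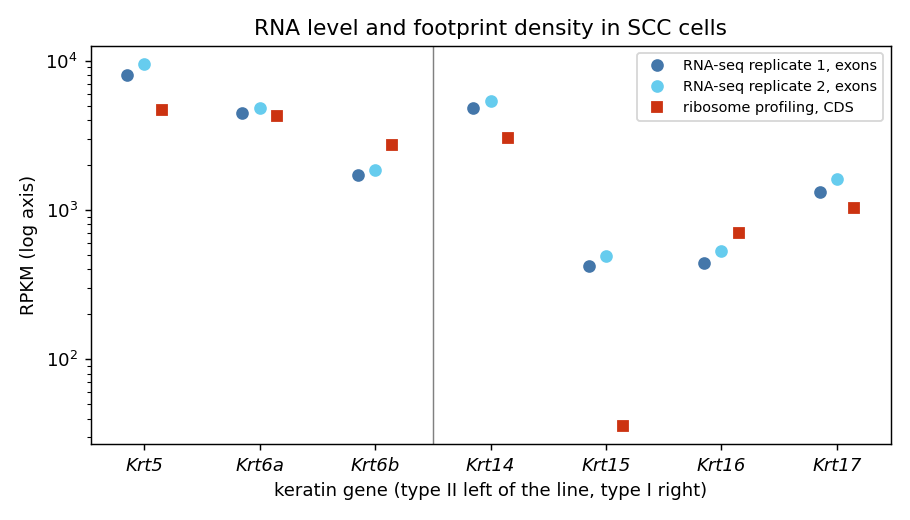
RPKM on a log axis for each member, with the RNA level on exons in RNA-seq replicate 1 (dark blue) and replicate 2 (light blue) and the footprint density on the CDS in the 1 ribosome profiling library (red squares). Krt15 and Krt16 have overlapping RNA levels between 425 and 528 RPKM, and footprint densities of 35.7 and 701 RPKM.

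Translational efficiency, the CDS footprint density per unit of RNA level (RPKM over RPKM, with the RNA-seq replicates averaged), is given as log2 relative to the median of the 9863 genes. The SD is over the values from each of the 2 RNA-seq replicates, and no replicate of the ribosome profiling library was analysed here. The basal pair lay below the median, with a log2 efficiency of −1.25 ± 0.19 (SD, n = 2) in Krt5 and −1.09 ± 0.12 (SD, n = 2) in Krt14. Krt15 had the lowest value of the members, −4.03 ± 0.17 (SD, n = 2), with a counting error of 0.11. It was 16.3-fold below the median gene, at percentile 0.867 of all passing genes. Among the 500 genes with the most RNA, all 7 members included, it ranked 3 from the lowest. These abundant genes had a median log2 efficiency of 0.52, above that of all passing genes, and 10.4% of them were below −1.

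With densities per length, the stress keratins were nearer to the median than Krt5 and Krt14. Krt6a had a log2 efficiency of −0.46 ± 0.08 (SD, n = 2) and Krt17 of −0.85 ± 0.21 (SD, n = 2). Krt6b had 0.27 ± 0.10 (SD, n = 2) and Krt16 had 0.19 ± 0.20 (SD, n = 2), so that Krt16 was within its spread of the median. The order from the lowest was Krt15, Krt5, Krt14, Krt17, Krt6a, Krt16, Krt6b, with percentiles of 0.867, 16.7, 19.3, 24.3, 35.1, 56.9 and 59.2. Krt5 and Krt14 differed by less than the larger of their SDs, and so did Krt16 and Krt6b. Krt15 was apart from the next gene by 2.77. Krt5 was below Krt14 with replicate 1 alone (−1.12 and −1.01) and with replicate 2 alone (−1.38 and −1.18). Krt16 was above Krt6b with replicate 1 (0.336 and 0.333) and below it with replicate 2 (0.054 and 0.197). The highest values belonged to Krt6b and Krt16, whose CDS counts are uncertain. In sums chosen after seeing the data, the joint efficiency of Krt6a and Krt6b was −0.22, and that of Krt14, Krt16 and Krt17 was −0.91.

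Of the 7 members, 3 had a log2 efficiency below −1 (Krt5, Krt14 and Krt15), beside 21.1% of all passing genes, and none was above 1, beside 20.8%. The median of the members was −0.85. Where counts were not divided by length, Krt5 was at −0.57 and Krt14 at −0.27, nearer to the median than Krt6b at 0.85 and Krt16 at 1.05. Krt16 was then above 1 and Krt15 was the 1 member below −1, beside 19.2% of genes above 1 and 21.1% below −1 in that setting. With RNA-seq counted over the CDS, Krt14 was at −0.92 and 2 members were below −1, beside 19.5% of genes in that setting. With at least 100 counts required in every library, which leaves 4829 genes and a higher median, Krt17 was at −1.24 as well and 4 members were below −1, beside 15.7% of those genes.

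Krt15 and Krt16 are type I chains whose RNA levels on exons overlapped. The RNA level of Krt16 was 1.03 times that of Krt15 in replicate 1 and 1.07 times in replicate 2, and its footprint density was 19.6 times as high. The difference in log2 efficiency was 4.22, and it was 4.24 with replicate 1 alone and 4.20 with replicate 2 alone. The counts of Krt16 in this comparison are among the uncertain ones. On the 3′UTR, where neither gene shared a window, Krt16 had 20.8 and 15.8 RPKM of RNA-seq in replicates 1 and 2, below the 156 and 176 RPKM of Krt15, so their RNA levels were alike on exons and not on the 3′UTR. Krt17 had 3.12 and 3.27 times the RNA level of Krt15 and 28.9 times its footprint density. The range over all settings tried for Krt15 was −4.42 to −3.35, below the value of every other member in the same setting.

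**Figure D3:**
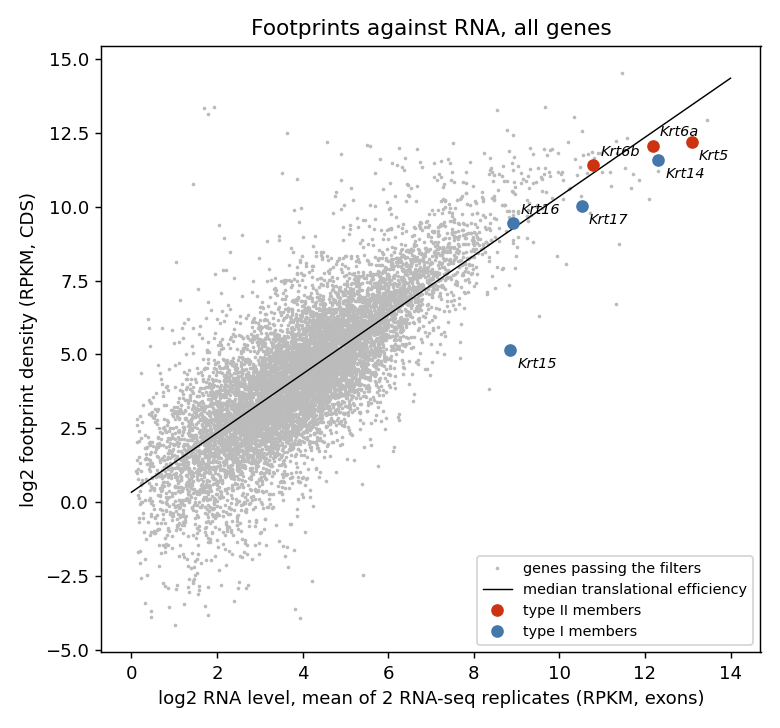
Log2 footprint density on the CDS against log2 mean RNA level on exons for the 9863 genes that passed the filters (grey), with type II members in red and type I members in blue. The line is the median translational efficiency, and Krt15 lies farthest under it of the members, at a log2 efficiency of −4.03.

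By distance in log2 RNA level and log2 footprint density, the nearest non-keratin genes to Krt5 were Eef1a1, an elongation factor, and Rplp1, a ribosomal protein, at 0.82 and 1.26. Anxa1 was at 0.88 from Krt6a. Krt6b was nearest to Gsto1 (0.23) and Rpl13a (0.31), and Krt14 to Rplp1 (0.37) and Rpl8 (0.76). Krt16 was nearest to Slc25a3 (0.21) and Mt2 (0.26), and Krt17 to Rplp0 (0.31) and Hsp90ab1 (0.34). Krt15 had no close neighbour by this measure, and the nearest genes were Mknk2 and Gnas, both at 1.20. Mknk2 had a log2 efficiency of −2.60 and Gnas of −3.15, both above that of Krt15.

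Reads on the UTRs separated the members from each other more than reads on the CDS did. In RNA-seq, the 3′UTR of Krt5 had 16927 counts in replicate 1 and 25199 in replicate 2, at a log2 density of −1.02 and −1.09 relative to its CDS. Krt6a was close to this, with 13809 and 18175 counts and log2 densities of −1.14 and −1.23. Krt15 had 435 and 642 counts, at −1.64 and −1.69. These 3 genes were between percentiles 24.9 and 40.8 of 7529 genes compared (3′UTR of 60 nt or more, and 100 or more RNA-seq counts on the CDS in each replicate). Krt14 had 1187 and 1659 counts on a 3′UTR of 153 nt, at −2.85 and −2.92. Krt17 had 532 and 749.7 counts, at −2.48 and −2.66.

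Krt6b and Krt16 were the exceptions. Krt6b had 20.6 and 30.6 RNA-seq counts on 509 nt of 3′UTR, beside 40789.5 and 57967 on its CDS, so that its 3′UTR density was 608-fold and 581-fold below its CDS. Its 5′UTR had 4.98 and 4.25 counts. Krt16 had 32.6 and 32.4 counts on 146 nt of 3′UTR, beside 7308 and 11505 on the CDS, which was 23.3-fold and 36.9-fold below. Krt6b was at percentiles 0.538 and 0.485 of the 7529 genes, and Krt16 at 3.67 and 2.58. Of the 7 members, 4 (Krt6b, Krt14, Krt16 and Krt17) had a 3′UTR density below −2 in both replicates, beside 18.5% of all genes compared.

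Set beside its near-identical neighbour, Krt6b had 43.9% and 44.3% of the RNA-seq density of Krt6a on the CDS in replicates 1 and 2. On the 3′UTR, which the genes do not share, it had 0.159% and 0.179%, and on the 5′UTR 0.247% and 0.141%. The same gap was seen in footprints, where Krt6b had 63.3% of the density of Krt6a on the CDS and 0.463% on the 5′UTR. Krt16 had 9.28% and 9.98% of the RNA-seq density of Krt14 on the CDS, and 2.88% and 2.05% on the 3′UTR. Krt17, which shares fewer windows with Krt14, had 28.1% and 30.8% of its RNA-seq density on the CDS and 36.5% and 36.8% on the 3′UTR. In footprints Krt17 had 34.1% of the density of Krt14 on the CDS and 25.6% on the 3′UTR, and Krt16 had 23.1% and 11.3%. The part of shared reads in these differences was not tested. Ordered by 3′UTR density in place of exons, the members ran Krt5, Krt6a, Krt14, Krt17, Krt15, Krt16, Krt6b in both replicates, and Krt6b went from place 4 to place 7.

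**Figure D4:**
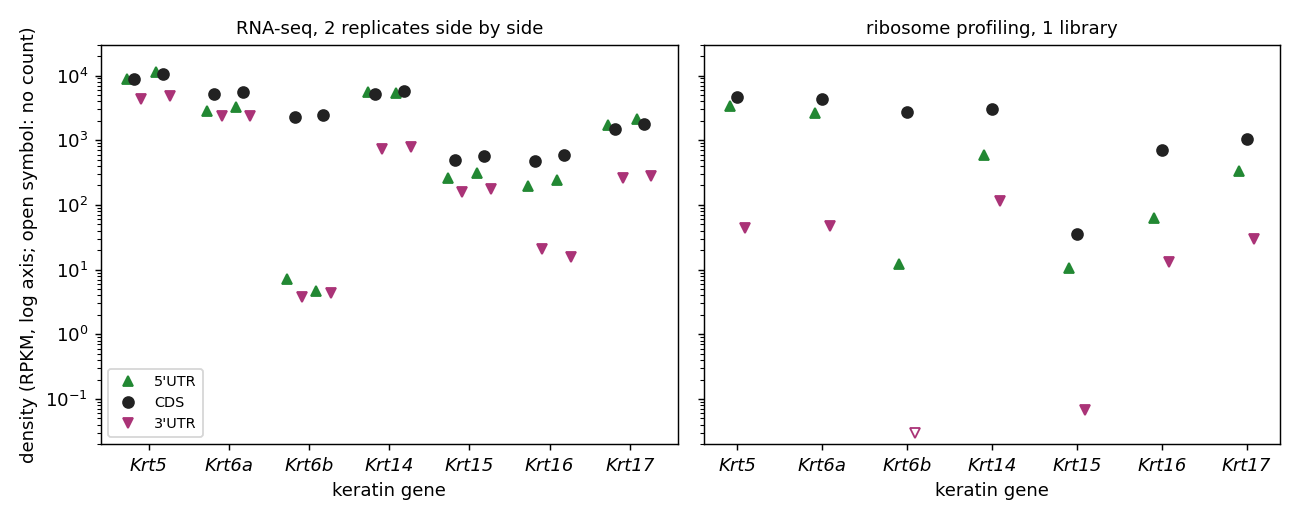
Density in RPKM on a log axis over the 5′UTR (green), CDS (black) and 3′UTR (purple) of each member, for both RNA-seq replicates (left, replicate 1 then 2) and the ribosome profiling library (right), with an open symbol at the bottom where no count was found. The UTR densities of Krt6b in RNA-seq lie between 3.77 and 7.05 RPKM, under a CDS density of 2292 RPKM or more.

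Footprints on the 5′UTR were frequent in Krt5 and Krt6a. Krt5 had 983 footprints on 81 nt of 5′UTR, at a log2 density of −0.44 relative to its CDS, or percentile 65.3 of 1089 genes (5′UTR of 60 nt or more holding 30 or more footprints, with 10 or more on the CDS). As that set was chosen by its 5′UTR footprints, the percentile does not place Krt5 among all genes. Krt6a had 535 footprints on 57 nt, at −0.70. Krt14 had 117 on 55 nt, at −2.33, and Krt17 28.6 on 24 nt, at −1.62. Krt15 had 3.47 footprints on 91 nt, at −1.74, so that its 5′UTR held few footprints as its CDS did. RNA-seq on the same 5′UTR of Krt15 gave 255 and 394 counts. The RNA-seq log2 density on the 5′UTR relative to the CDS was 0.01 and 0.10 in Krt5, above its footprint value. In Krt6a it was −0.87 and −0.79, below its footprint value. Counted 5′UTRs of 6 members were below 60 nt or held under 30 footprints, and no percentile is given for them.

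The 3′UTRs held few footprints in all members relative to the density on their CDS. Krt6a had 90.3, Krt14 63.3 and Krt5 57.7 footprints there, at log2 densities of −6.51, −4.70 and −6.72 relative to the CDS. Among 284 genes with 30 or more footprints on the 3′UTR these were percentiles 10.7, 40.0 and 7.22. As that set was chosen by its 3′UTR footprints, the percentiles do not place the members among all genes. Krt17 had 19.9 footprints, Krt16 6.82 and Krt15 0.0625 of a count, and Krt6b had none.

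**Figure D5:**
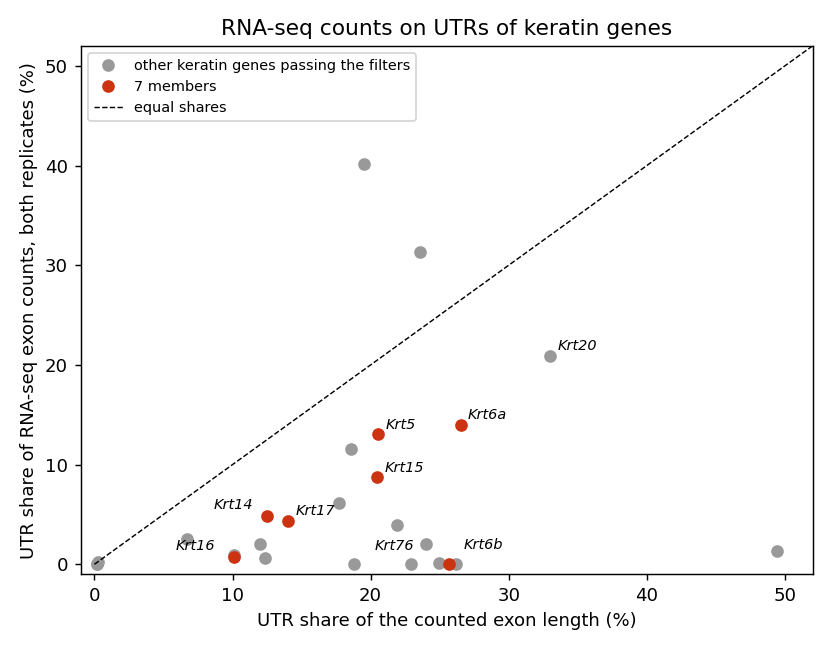
Percent of RNA-seq exon counts (both replicates) that fell on UTRs against the percent of counted exon length that is UTR, for the keratin genes that passed the filters, with the 7 members in red. Krt6b has 25.7% of its length and 0.0611% of its counts on UTRs, while Krt5 has 20.5% and 13.1%.

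As type II and type I chains pair, their summed densities were compared. The summed RNA level of the 3 type II genes was 2.02 times that of the 4 type I genes in replicate 1 and 2.02 times in replicate 2, and the summed footprint density was 2.43 times as high. Leaving out Krt15 moved the footprint ratio to 2.44 and the mean RNA ratio to 2.15. Over the 3′UTR alone, the RNA ratio was 5.72 and 5.82. The comparison was repeated with 20 type II and 27 type I keratin genes, each annotated as protein-coding with a row of its own. Left out were the rows of Krt222 and Krt74, and a row that joins Krt81, Krt83 and Krt85 with another gene. The footprint ratio was then 1.87 and the RNA ratios were 1.81 and 1.82.

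A further 43 rows named a keratin, of which 19 passed the filters, 5 with a log2 efficiency below −1 and 7 above 1, beside 21.1% and 20.8% of all passing genes. The 6 with the most RNA were Krt19, Krt20, Krt76, Krt72, Krt4 and Krt42. Krt19, a simple epithelial type I chain, had 565 and 669 RPKM, above Krt16 and Krt15, and a log2 efficiency of 0.26. Krt20 had 267 and 233 RPKM and an efficiency of 0.57. These keratins had more footprints than Krt15, with 4032 on Krt19 and 2161 on Krt20. Krt76, Krt4 and Krt42 had RNA levels from 23.9 to 61.9 RPKM, below every member and above the median of all passing genes, and few or no RNA-seq counts on UTRs: none in Krt76 and Krt4 and 6.17 in Krt42. Krt72 had 668 and 994 RNA-seq counts and 1 footprint on its CDS, a log2 efficiency of −8.23. The rows of Gm5414 and Gm5478, genes of the same chromosome 15 cluster that share 225 and 354 CDS windows with Krt6b, had 5585 and 6529 RNA-seq counts in replicate 1 and 8345 and 9860.2 in replicate 2.

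The other basal layer genes on a list had RNA levels above the median of 15.3 RPKM over all passing genes. The shares of all passing genes, 21.1% below −1 and 20.8% above 1, stand beside the counts of each list that follows. All 10 basal layer genes on the list passed, from Cdh3 with 45.1 and 46.8 RPKM to Col17a1, a hemidesmosome collagen, with 946 and 1024. Their median log2 efficiency was −0.13, and 1 of 10 was below −1, Col17a1 at −1.95. Of the 12 keratin anchoring and filament partners, all passed, 6 were below −1 and 1 was above 1, with a median of −0.91. Col17a1 had the most RNA among them and Evpl, a cornified envelope plakin, the least, with 9.18 and 10.2 RPKM. Of 14 regulators known for keratin genes 13 passed, 1 below −1 and 3 above 1, with a median of 0.41. Nfe2l2, the oxidative stress factor, had the most RNA among these, with 191 and 165 RPKM, and Cebpa the least, with 1.34 and 2.14 RPKM and no footprint.

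The labels call the cells keratinocytes, and markers of basal keratinocytes were measured in them. All 6 passed, with a summed RNA level of 14347 and 16466 RPKM, led by Krt5 and lowest in Trp63 with 141 and 125. Krt5 and Krt14 made up most of this sum, and the 4 markers that are not among the 7 keratins (Trp63, Itga6, Itgb4 and Col17a1) summed to 1558 and 1621 RPKM. Of 8 suprabasal markers 7 were listed and 5 passed, summing to 322 and 344 RPKM, with Sbsn highest (146 and 163 RPKM) and Lor lowest with 2 counts in each replicate. Krt1 and Krt10, the chains of the suprabasal layers, had 6.36 and 9.05 and 7.37 and 6.93 RPKM. The 5 simple epithelial keratins summed to 838 and 909 RPKM of RNA, with Krt19 highest and Krt7 lowest, and to 1537 RPKM of footprints. Krt8 and Krt18 were below 5 RPKM of RNA but had 295 and 260 footprints on the CDS, more than Krt15. Their footprint densities were 56.5 and 67.5 RPKM, at log2 efficiencies of 4.54 and 3.66. Hair markers summed to 20.0 and 23.4 RPKM over 7 genes, with Sox9 highest and Lgr5 lowest.

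None of the 8 fibroblast markers passed, and Col3a1, the highest, had 3.89 and 5.49 RPKM, Pdgfrb, the lowest, 3 counts in each replicate. The 5 melanocyte markers summed to 5.46 and 5.65 RPKM, highest in Pmel and, by mean RPKM, lowest in Tyr with 1 count in each replicate. Mlana had 1 count in replicate 1 and 0 in replicate 2. The immune markers had Lyz2 as their highest, with 2.71 and 8.56 RPKM, and Cd3e and Cd207 had no count in any library. The 3 endothelial markers summed to 0.505 and 0.591 RPKM, highest in Kdr and lowest in Cdh5. Footprint densities summed to 0.870 RPKM over the fibroblast markers and to 0 over the immune markers.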

How the data were processed

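The authors trimmed reads with Trim Galore, removed ribosomal and similar reads from ribosome profiling with Bowtie2 2.4.1, aligned with STAR 2.6.1 to GRCm38 and counted with Plastid over exons, CDS and UTRs. Versions are from the submitters' processing notes. The annotation release and the treatment of reads that map to several places are not given in the sources used here. The deposited files hold expected counts (fractional) and RPKM values by the authors, whose library totals were larger than the exon counts. Exon counts were 1.75% of that total for ribosome profiling, and 21.1% and 21.3% for RNA-seq replicates 1 and 2. For this reason RPKM values were recalculated with exon counts as the library total.

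Genes passed with RPKM above 1 in both RNA-seq libraries, base mean above 25 (DESeq2 1.42.0 size factors on rounded counts) and a footprint on the CDS. Translational efficiency had no pseudocount. edgeR 4.0.16 gave TMM factors. The calculation was run on simulated data, with counting noise drawn around the observed counts. Within 0.5 log2, it recovered 99.0% of 200 genes changed 4-fold where each library had 100 or more counts. This checks the arithmetic under counting error only. Variation between libraries and reads that map to several genes were not simulated. Windows were read from GENCODE M21 transcripts. With 1 condition and 1 ribosome profiling library used here, nothing was tested. Named genes were the 7 members, the 6 other keratin rows with the most RNA, the highest, the lowest and any member without a count of each list, and the 2 nearest genes of each member, of which 1 is not reported here. Other genes were named after their values were seen. Members and lists were chosen with earlier results of these data known.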

Additional observations from a re-analysis of the deposited data

How the results depend on the processing

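The efficiency of Krt15, Krt5, Krt14 and Krt17 stayed below the median in all settings tried. Without division by length Krt6a was at 0.11, Krt16 at 1.05, the median of the members at −0.057 and 1 member below −1, beside 21.1% of genes. Where 100 or more counts were required of each library, Krt6b was at −0.13, Krt16 at −0.20, the median of the members at −1.24, and 757 genes were below −1 and 908 above 1, as fewer genes entered. Krt14, Krt16 and Krt17 summed gave −0.91 in place of the value of Krt16, and Krt6a and Krt6b summed −0.22, both chosen after seeing the data. Leaving out either RNA-seq replicate gave Krt15 −4.14 and −3.91. The type II over type I ratios (footprints, then RNA) were 2.44 and 2.15 without Krt15. They were 1.87 and 1.82 with the 20 type II and 27 type I keratin genes compared above, and 2.18 and 1.90 without Krt6b and Krt16. The RNA ratio was 2.11 over the CDS and 5.77 over the 3′UTR. Leaving out Krt6b and Krt16, and the 3′UTR as the region counted, were chosen after seeing the data. The median log2 UTR density over the CDS, −1.74 for footprints on the 5′UTR and −6.51 on the 3′UTR, was −0.87 and −0.79 on the 5′UTR and −2.48 and −2.66 on the 3′UTR in the RNA-seq replicates. Beyond these the cause of a shift was not tested. No paired analysis was possible because there was 1 condition and the labels link the ribosome profiling library to neither RNA-seq library. Every efficiency thus sets footprints beside RNA of libraries not known to be matched. The use of 1 ribosome profiling library limits every efficiency, and 173 footprints limit that of Krt15.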
